A study of Homo sapiens with 18 samples.

Results

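The comparison described here set SW48 cells given siRNA against CHD4 together with decitabine beside SW48 cells given control siRNA together with decitabine. It compares 6 of the 18 RNA sequencing libraries of the series, 3 from each group, chosen by their labels alone. SW48 is an established human colon adenocarcinoma line. Decitabine was given to both groups at 50 nM on days 1, 2 and 3, the siRNA on days 1 and 2, and day 5 was the day of RNA extraction, so decitabine and the schedule are common to both. The other 12 libraries are the same pair of siRNAs with siRNA against DNMT1 (siDNMT1, RNA on day 11) or with neither agent (RNA on day 8). They show where the siCHD4 effect differed from its size under decitabine. They also entered the filter that chose the tested genes and the estimate of the spread behind the p-values. Control siRNA or siCHD4 was first and last given on days 7 and 8 with siDNMT1, and on days 1 and 6 with neither agent. No label states that replicate libraries are separate cultures, so p-values here measure the spread between libraries, which may be technical.

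CHD4 drives nucleosome movement in NuRD, a chromatin complex that also holds histone deacetylases; the complex thereby both slides nucleosomes and strips acetyl groups from histones. Decitabine is a deoxycytidine analogue that is built into replicating DNA and traps DNA methyltransferases, so that DNA methylation is diluted as cells divide. Genes that depend on promoter methylation for their silence, above all the cancer-testis genes that are normally read in germ cells, are the best known genes to open after such treatment.

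Every value is FPKM, fragments scaled to transcript length and to library size, as the authors deposited it. How library size was taken was not given in the sources used here. Changes are differences of means of log2(FPKM + 1), siCHD4 with decitabine minus control siRNA with decitabine, so a positive change means higher with siCHD4; the added 1 makes the change of a gene with a low level smaller than its ratio. A gene was called higher or lower at an adjusted p below 0.05 in limma, among 12809 genes tested. The libraries differed in depth. The worth of 1 fragment was read as the most frequent ratio of the values of low genes to those in control replicate 1 with decitabine. It was 0.536, 0.536 and 0.642 in the siCHD4 libraries with decitabine. In control replicates 0, 1 and 2 with decitabine it was 3.68, 1 and 0.790. Control replicate 0 was thus the shallowest library by this measure. It gave 57.3% of its summed FPKM to small RNA genes, and 8835 genes stood at 0 in it. It also had 69323 FPKM of MTRNR2L2 and 32509 FPKM of MTRNR2L8. The other decitabine libraries had 25.5 to 164 and 6.15 to 72.8 FPKM of these genes. Its composition thus stood apart as well as its depth. Genes at 0 numbered 5939 to 6292 in the siCHD4 libraries with decitabine and 7307 to 8835 in the control libraries with decitabine. The part of this depth difference in the results for low genes was not tested; calls without control replicate 0 are given where they differ.

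The epithelial character of the line was present in both groups. EPCAM, the epithelial adhesion molecule, had 205, 211 and 245 FPKM with siCHD4 and decitabine, against 131, 213 and 202 FPKM with control siRNA and decitabine. CDX2, the intestinal homeobox factor, had 57.1, 54.7 and 57.5 FPKM with siCHD4 and 44.0, 47.9 and 50.9 FPKM with control siRNA. The colon markers CDX1, LGALS4 and GPA33 were at or near 0, with no value above 0.452 FPKM in any of the 6 libraries. Defining markers of other cell types were low: the 10 fibroblast markers summed to 6.79 to 7.70 FPKM with siCHD4 and 0.624 to 3.90 FPKM with control siRNA, with COL1A2, COL3A1, FAP and POSTN at 0 in all 6 libraries. The 14 blood cell markers summed to 6.81 to 8.58 FPKM with siCHD4 and 6.84 to 11.6 FPKM with control siRNA, with CD3D and HBB at 0 throughout. The 9 neural and glial markers summed to 14.1 to 15.1 FPKM with siCHD4 and 12.4 to 14.6 FPKM with control siRNA, nearly all of it MBP at 13.6 to 14.4 FPKM with siCHD4 and 11.6 to 14.5 FPKM with control siRNA. The 8 endothelial markers summed to 0.479 to 0.620 FPKM with siCHD4 and 0 to 0.283 FPKM with control siRNA. In bulk libraries, fewer cells that express a gene and less of its RNA per cell cannot be told apart.

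CHD4 itself was lower in each library that had received its siRNA, by less than with siDNMT1. CHD4 (chromosome 12, 6679248 to 6723690, GRCh37) had 55.6, 56.5 and 52.6 FPKM with siCHD4 and decitabine, against 66.8, 80.2 and 81.5 FPKM with control siRNA and decitabine. The groups did not overlap, and the siCHD4 mean was 72.1% of the control mean. The log2 change was -0.46 (SE 0.14, limma adjusted p = 0.0752), and without control replicate 0 it was -0.55 (adjusted p = 0.0449). The exact two-sided permutation test of the 3 against 3 libraries gave p = 0.1, the smallest that this design allows. The siCHD4 mean was 49.9% of its control with neither agent and 41.6% with siDNMT1. The difference between the effects with decitabine and with siDNMT1 passed the test (log2 difference 0.77, adjusted p = 0.0289), and that between decitabine and neither agent did not (adjusted p = 0.209). The decitabine comparison thus rests on a smaller reduction of CHD4 RNA than the siDNMT1 comparison set beside it further on.

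Few genes of the NuRD list were called. Of 16 NuRD genes tested, 1 was called higher and 0 lower in limma (at an unadjusted p below 0.05, 2 higher and 3 lower), with a median log2 change of 0.01. Over all tested genes 3.26% were called higher and 1.31% lower, and at an unadjusted p below 0.05 there were 10.9% higher and 8.80% lower. The 1 called gene was ZNF827, a zinc finger protein that binds NuRD, with 7.35, 8.61 and 5.82 FPKM with siCHD4 and 3.80, 3.56 and 4.02 FPKM with control siRNA (log2 change 0.77, adjusted p = 0.00307). CHD3, the related ATPase of the same complex, had 6.77, 7.94 and 6.77 FPKM with siCHD4 and 4.81, 4.62 and 5.27 FPKM with control siRNA, which did not overlap but did not pass the test (log2 change 0.47, adjusted p = 0.172). The deacetylase HDAC1 and the scaffold subunit MTA2 had log2 changes of -0.22 (adjusted p = 0.122) and 0.13 (adjusted p = 0.399).

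Of 20 genes of the DNA methylation machinery, 0 were called in limma, with 2 higher and 1 lower at an unadjusted p below 0.05. DNMT1, the maintenance methyltransferase and the main enzyme that decitabine traps, had 52.0, 53.6 and 44.7 FPKM with siCHD4 and 53.3, 48.3 and 53.4 FPKM with control siRNA (log2 change -0.05, adjusted p = 0.832). Its groups overlapped. The de novo methyltransferases DNMT3A and DNMT3B had log2 changes of 0.11 (adjusted p = 0.616) and 0.12 (adjusted p = 0.603). DCK, deoxycytidine kinase, phosphorylates decitabine into its active form; it had 15.1, 16.7 and 17.0 FPKM with siCHD4 and 12.8, 25.6 and 22.0 FPKM with control siRNA. Its 3 siCHD4 values lay inside the control range (log2 change -0.24, adjusted p = 0.457). Without control replicate 0, which held its lowest value, the change was -0.52 and passed the test (adjusted p = 0.0107).

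With siCHD4 on the decitabine background, 418 genes were higher (3.26% of those tested) and 168 were lower (1.31%), 4.57% in all. Among the called genes, 99 were higher and 14 lower by at least 1 on the log2 scale, and the median change was 0.68 for the higher and -0.49 for the lower genes. The libraries of the groups did not overlap for 415 of the 418 and 167 of the 168 called genes; over all tested genes such separation occurred in 13.8% upward and 13.2% downward. Without control replicate 0 the counts were 480 higher (3.75%) and 161 lower (1.26%), of which 331 and 98 were also called with it. The calls depended more on the siCHD4 libraries: without their replicate 0 there were 242 higher and 53 lower genes, without replicate 1 there were 250 and 51, and without replicate 2 there were 296 and 110. Calls made in each of these 6 fits with 1 library left out numbered 212 higher and 37 lower. In a fit of the 6 decitabine libraries alone, which estimates the spread from these libraries, 131 genes were higher and 16 lower, and with library weights 1870 and 1837 (50.4% higher). After quantile normalization the split was 335 higher and 257 lower, 56.6% higher, where it was 71.3% higher without it. Of the 76 called genes described in the text, 38 were not called in the 6 libraries alone, at adjusted p from 0.0546 to 0.216: ZNF827, MAGEB2, HIST1H2BA, HIST1H2AA, HIST1H1D, APOBEC3G, EHF, C2orf54, C6orf15, PRSS22, KRT18, KRT8, SNORD17, ESR1, NDRG4, MX1, PERP, CDC25C, ORC6, HNF4A, CD44, EPHB2, UCHL1, MKRN3, HSPA5, ACAT2, STARD4, EGR2, MORC2, RPL22, RPL14, OR51B4, CALCA, CALCB, HOTAIR, HOXC12, RAC2 and CD52. With a pseudocount of 0.1, PHGR1, IFI27, HIST1H1D, CALCA, HOTAIR, HOXC12 and CD52 lost theirs, at adjusted p from 0.0529 to 0.286.

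**Figure D1:**
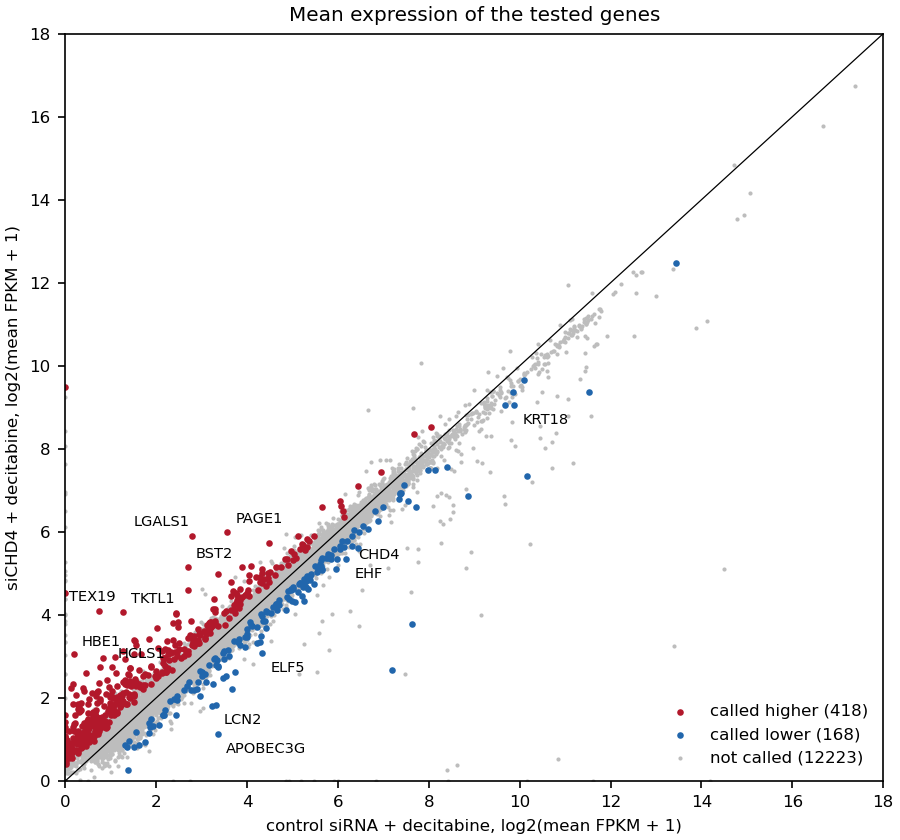
Mean expression of the 12809 tested genes, siCHD4 with decitabine on the vertical axis and control siRNA with decitabine on the horizontal axis, both as log2(mean FPKM + 1), with the line of equal level. The 418 genes called higher lie mainly in the low left part of the plot, while many of the 168 genes called lower lie at middle to high levels.

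Genes near silence in the controls were among the higher calls, in a number that depended on the filter. Of the 418 genes, 27.8% had a mean under 0.5 FPKM with control siRNA and decitabine, which was 116 of 331 tested genes at that level. In the other direction, 135 tested genes had a mean under 0.5 FPKM with siCHD4 and decitabine, and 1 of them was called lower. A gene this low in 1 group can be tested only if it is higher elsewhere in the series, so the first count was made again without the filter: 380 of 6965 genes were then called higher and, for the opposite direction, 5 of 6650 were called lower. With the filter applied to the 6 decitabine libraries only, 44 such genes were called higher, and with a filter at 5 FPKM 11. Under quantile normalization the counts were 62 higher and 10 lower. Of the 418 genes, 218 were under 0.5 FPKM with control siRNA and neither agent, and 105 of these were at or above 0.5 FPKM with control siRNA and decitabine.

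With small RNA genes set aside, the changes were led by germ cell genes and by a few genes of other tissues. TEX19, a germ cell factor that restrains retrotransposons in mice (chromosome 17, 80317123 to 80321651), had 16.2, 15.5 and 16.4 FPKM with siCHD4 and 1.54, 0.210 and 0.222 FPKM with control siRNA (log2 change 3.45, SE 0.21, adjusted p = 1.31e-07). All 3 siCHD4 libraries lay far above the controls, of which the shallow replicate 0 was the highest. LGALS1, the secreted lectin galectin-1 (chromosome 22, 38071643 to 38075809), had 61.1, 50.8 and 62.9 FPKM with siCHD4 and 6.37, 5.20 and 6.04 FPKM with control siRNA (log2 change 3.11, SE 0.24, adjusted p = 1.09e-06). Its controls lay close together at a low but clear level, and every siCHD4 library was far above them. TKTL1, a transketolase-like gene counted among the cancer-testis genes (chromosome X, 153524148 to 153558700), had 16.4, 16.1 and 15.0 FPKM with siCHD4 and 2.81, 0.742 and 0.646 FPKM with control siRNA (log2 change 2.92, SE 0.22, adjusted p = 8.72e-07). HBE1, the embryonic epsilon globin, had 6.23, 7.89 and 7.64 FPKM with siCHD4 and 0, 0.399 and 0 FPKM with control siRNA (log2 change 2.88, SE 0.16, adjusted p = 9.25e-08). It was at 0 in 2 of the 3 controls, and in the annotation it overlaps the olfactory receptor gene OR51B5, so its reads cannot be fully assigned.

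BST2 and HCLS1 are genes of interferon-treated and blood cells. BST2, or tetherin, holds budding viruses at the cell surface; it had 32.1, 33.1 and 39.0 FPKM with siCHD4 and 9.74, 3.31 and 3.28 FPKM with control siRNA (log2 change 2.61, SE 0.29, adjusted p = 4.84e-05). HCLS1, a cortactin-like actin regulator of blood cells, had 7.00, 6.38 and 7.04 FPKM with siCHD4 and 0.244, 0.796 and 1.31 FPKM with control siRNA (log2 change 2.17, SE 0.16, adjusted p = 8.15e-07). In HCLS1 the shallow control replicate 0 was the lowest of the controls, and in BST2 the highest. VCX, a testis gene of the X chromosome with near-identical copies, had 3.27, 3.67 and 5.10 FPKM with siCHD4 and 0, 0 and 0.379 FPKM with control siRNA (log2 change 2.15, SE 0.13, adjusted p = 1.31e-07). COL6A3, a chain of collagen VI, had 6.56, 6.82 and 7.20 FPKM with siCHD4 and 1.77, 0.875 and 0.730 FPKM with control siRNA (log2 change 1.92, adjusted p = 2.06e-06). In none of these 4 genes did the groups overlap, but the rule that picked the most changed genes required this.

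**Figure D2:**
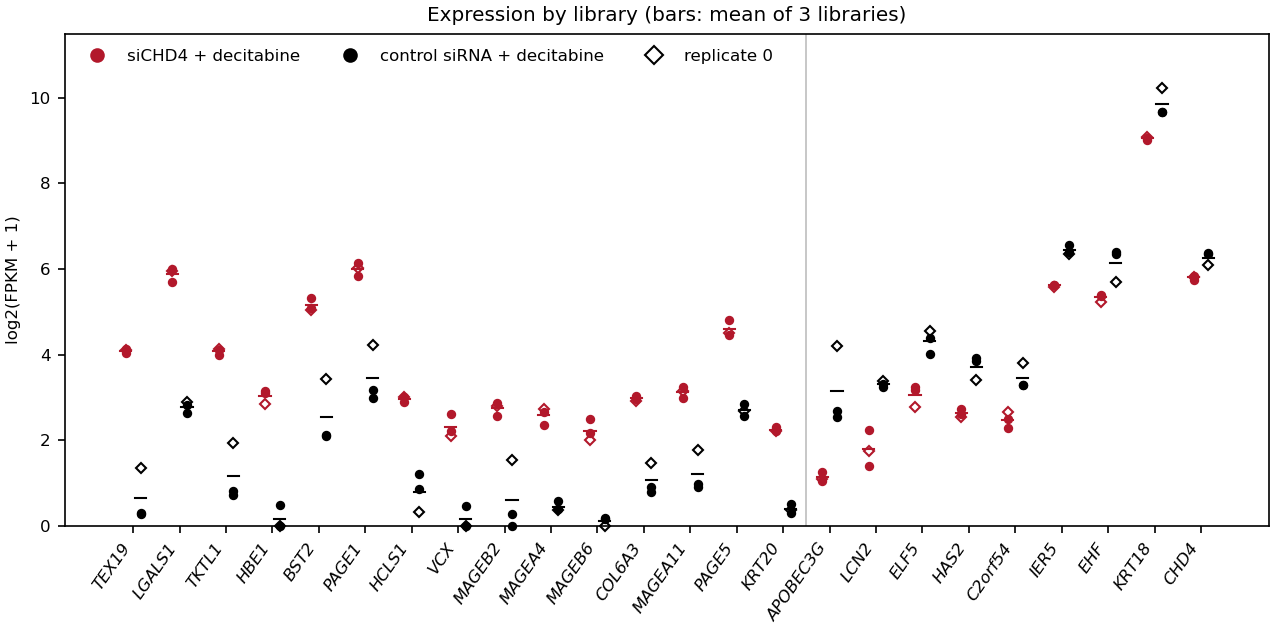
Expression of 24 genes in each library, as log2(FPKM + 1), with siCHD4 and decitabine in red left of control siRNA and decitabine in black; open diamonds are replicate 0, bars are means of 3 libraries, and the grey line parts genes with a positive change from those with a negative change. In each gene shown the groups stand apart, which the rule for the most changed genes required of those it picked. Control replicate 0 is above the other controls in TEX19, TKTL1, PAGE1, MAGEB2 and APOBEC3G and below them in HCLS1, HAS2 and EHF.

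The promoters of 3 of these genes called higher are shown because they differ in their content of CpG, and CpG is the site at which human DNA is methylated. Each line holds 250 bases before to 50 bases after the transcription start, 5′ to 3′ on the gene's strand, from RefSeq on GRCh38.p14, with every CpG in capitals. The windows are chrX:7842921-7843220 (plus strand) for VCX, chr3:121660854-121661153 (minus strand) for HCLS1 and chr19:17405581-17405880 (minus strand) for BST2. Of the 129 genes that the rule for named genes gives, 92 had an entry in that table.
VCX: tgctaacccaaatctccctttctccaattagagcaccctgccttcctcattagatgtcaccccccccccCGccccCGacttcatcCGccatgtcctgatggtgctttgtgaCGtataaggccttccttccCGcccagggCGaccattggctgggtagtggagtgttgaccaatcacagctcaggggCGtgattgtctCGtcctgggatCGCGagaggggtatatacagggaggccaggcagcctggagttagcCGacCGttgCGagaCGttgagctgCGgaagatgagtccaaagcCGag
HCLS1: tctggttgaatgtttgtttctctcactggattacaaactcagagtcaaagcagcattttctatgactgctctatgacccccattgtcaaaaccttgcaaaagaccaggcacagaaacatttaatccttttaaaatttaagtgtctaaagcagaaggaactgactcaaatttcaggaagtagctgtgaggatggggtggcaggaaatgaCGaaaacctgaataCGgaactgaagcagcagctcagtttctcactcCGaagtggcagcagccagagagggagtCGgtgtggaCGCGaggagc
BST2: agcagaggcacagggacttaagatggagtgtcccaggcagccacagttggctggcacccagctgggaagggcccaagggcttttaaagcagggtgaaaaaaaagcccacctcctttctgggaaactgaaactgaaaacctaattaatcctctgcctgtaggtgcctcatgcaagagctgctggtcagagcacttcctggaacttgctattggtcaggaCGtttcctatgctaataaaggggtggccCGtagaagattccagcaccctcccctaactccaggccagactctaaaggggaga

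The VCX window holds 16 CpGs, the HCLS1 window 6 and the BST2 window 2. The letters CG, which read the same on both strands, occur in 96.0% of the 35116 promoters of the table, with a median of 14 per promoter. In windows of the same size taken from GRCh37 at the annotated start of each gene, the median was 28 CpGs for all tested genes, 20 for genes called higher and 27.5 for genes called lower. It was 12 for called genes under 0.5 FPKM with control siRNA and decitabine, and 13 for cancer-testis and germline genes called higher. No median is given for uncalled genes at the same low level. Whether fewer CpGs go with the call or with the low level was therefore not tested. A window could be read for 94.5% of tested genes, 94.5% of the higher, 94.0% of the lower, 89.7% of the genes from silence and 94.6% of the called cancer-testis genes. These are descriptions of sequence; DNA methylation was not analysed here.

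Cancer-testis and germline genes had the highest share of called members, 74.0%, of the lists with at least 10 tested genes. Of 50 tested, 37 were higher and 0 lower in limma (42 higher and 0 lower at an unadjusted p below 0.05), with a median log2 change of 0.89, beside 3.26% higher and a median of 0.01 over all tested genes. All 50 changes were above 0. A gene silent in other groups passed the filter only if it reached 1 FPKM in 3 libraries, which siCHD4 libraries could supply. The share and the median thus depend in part on the filter. Without it, 38 of 82 measured genes were called higher, with a median log2 change of 0.47. In the fit of the 6 decitabine libraries alone 18 were called higher and 0 lower, and after quantile normalization 28 and 0. Over the 6 fits with 1 library left out the count was 28 to 42, and it was highest without control replicate 0, which held the highest of the 3 control values for 36 of the 50 genes. Summed over the whole list, the level was 350, 319 and 366 FPKM with siCHD4 and 163, 100 and 87.7 FPKM with control siRNA. The smallest siCHD4 sum exceeded the largest control sum, that of the shallow library.

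The members belong to several families of the X chromosome and to autosomal germ cell genes. PAGE1 had 63.8, 55.7 and 69.7 FPKM with siCHD4 and 17.6, 7.98 and 6.94 FPKM with control siRNA (log2 change 2.54, adjusted p = 0.000135), and PAGE5 had 21.7, 21.1 and 27.1 FPKM with siCHD4 and 5.37, 6.21 and 4.92 FPKM with control siRNA (log2 change 1.90, adjusted p = 8.64e-07). The controls of PAGE5 lay close together, and those of PAGE1 were spread by the high value of replicate 0. MAGEA4, a melanoma antigen that binds a ubiquitin ligase, had 5.64, 4.14 and 5.30 FPKM with siCHD4 and 0.295, 0.483 and 0.318 FPKM with control siRNA (log2 change 2.14, adjusted p = 9.25e-08). MAGEA11, known as a coregulator of the androgen receptor, had 7.82, 6.95 and 8.49 FPKM with siCHD4 and 2.39, 0.866 and 0.971 FPKM with control siRNA (log2 change 1.91, adjusted p = 1.47e-05). MAGEB2 had 5.99, 4.89 and 6.28 FPKM with siCHD4 and 1.90, 0 and 0.205 FPKM with control siRNA (log2 change 2.14, adjusted p = 0.000137), and MAGEB6 had 3.00, 3.46 and 4.62 FPKM with siCHD4 and 0, 0.139 and 0.110 FPKM with control siRNA (log2 change 2.102, adjusted p = 1.30e-07). No siCHD4 library overlapped a control in these 6 genes, which the rule for the most changed genes required of those it picked. Members of the MAGEA, PAGE and VCX families have near-identical copies, between which reads may have been split in the authors' counting.

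**Figure D3:**
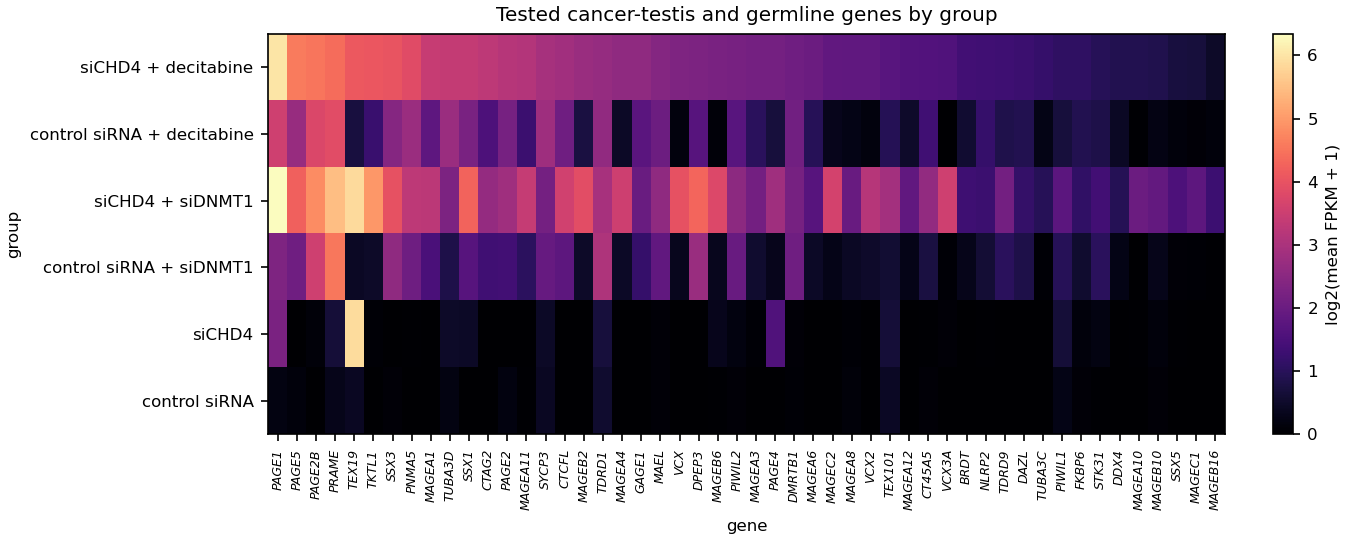
Mean level of the 50 tested cancer-testis and germline genes in each of the 6 groups of 3 libraries, as log2(mean FPKM + 1) on the colour scale, genes ordered by the level with siCHD4 and decitabine. The top row is brighter than the row under it for most genes; TEX19 is the bright gene in the row of siCHD4 with neither agent.

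Across the backgrounds these genes differed. With neither agent 3 of the 50 were called higher with siCHD4, and with siDNMT1 47 were. Silent genes could enter the 50 through the siCHD4 libraries with decitabine or siDNMT1 themselves. These counts therefore depend in part on the filter, and unfiltered counts for the other backgrounds are not given here. The siCHD4 effect with decitabine exceeded that with neither agent in 22 of the 50 genes by the test of the difference, and fell short of it in 1; background shares were 0.773% and 0.383% of tested genes. It was smaller than the effect with siDNMT1 in 21 genes and larger in 0 in limma, beside 4.16% and 4.24% of tested genes. MAGEA4 and VCX were at 0 in all libraries with neither agent, with and without siCHD4, and averaged 10.6 and 14.7 FPKM with siCHD4 and siDNMT1. TEX19 went the other way: it averaged 57.6 FPKM with siCHD4 alone and 0.316 FPKM with control siRNA alone, so its change with decitabine was the smaller by 2.02 (log2 difference -2.02, adjusted p = 0.00301). TKTL1 averaged 0.0459 FPKM with siCHD4 alone and 0.0151 FPKM with control siRNA alone (log2 difference 2.88, adjusted p = 0.000158). The RNA days, the siRNA days and the depth of the CHD4 knockdown differ between backgrounds and cannot be told apart from the agent.

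A larger share of X-linked than of autosomal genes was called higher. Of 400 tested X-linked genes 54 were called higher, 13.5%, against 2.90% of the 11869 tested autosomal genes. Cancer-testis and germline genes account for 28 of the 54. Without that list, 26 of 371 X-linked genes were called higher, 7.01%. Positions were found for 95.8% of the tested genes by symbol.

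**Figure D4:**
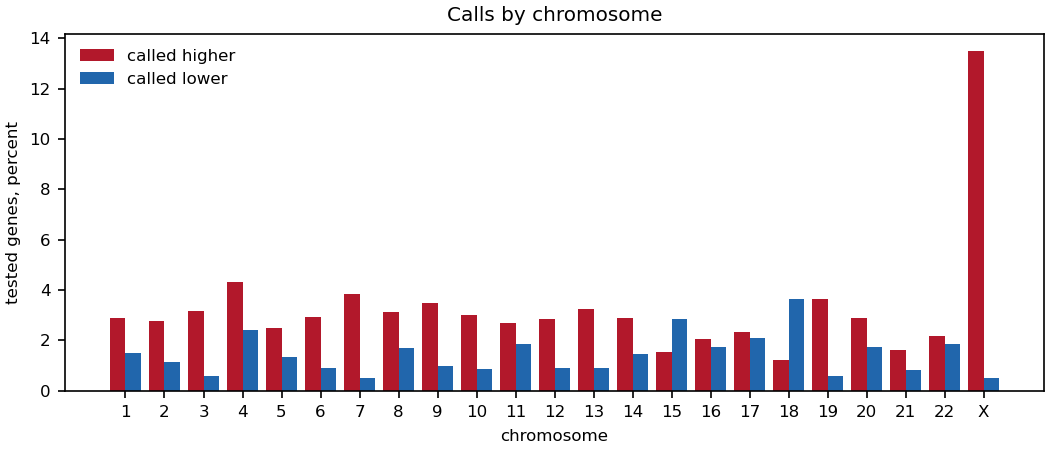
Percent of the tested genes of each chromosome called higher (red) and lower (blue) with siCHD4 and decitabine relative to control siRNA and decitabine. The X chromosome has 13.5% called higher; the autosomes together have 2.90%.

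Genes often hypermethylated in colorectal cancer were mostly not expressed: 12 of 62 were tested. Of these, 4 were higher and 0 lower in limma (5 and 1 at an unadjusted p below 0.05). The 4 are 33.3% of the tested members, beside 3.26% higher over all tested genes. Libraries with siCHD4 could bring a silent gene through the filter, so this share depends in part on the filter. Without it, 10 of 54 members were called higher and 1 lower, with a median log2 change of 0.03, beside 673 higher among all 19824 genes. After quantile normalization 3 of the 12 were higher and 1 lower. The median log2 change of the 12 tested members was 0.14. IGFBP3, which binds insulin-like growth factors, had 3.37, 3.23 and 3.54 FPKM with siCHD4 and 0.924, 0.553 and 0.358 FPKM with control siRNA (log2 change 1.46, adjusted p = 1.02e-05). RASSF5, a Ras effector, had 4.42, 4.11 and 3.95 FPKM with siCHD4 and 1.88, 1.68 and 1.71 FPKM with control siRNA (log2 change 0.90, adjusted p = 5.75e-06). In both genes the groups did not overlap, and the controls of IGFBP3 were the more spread. ESR1, the oestrogen receptor, had 0.459, 0.445 and 0.506 FPKM with siCHD4 and 0, 0 and 0.0156 FPKM with control siRNA (log2 change 0.55, adjusted p = 0.000369); after quantile normalization its change was 0.16 (adjusted p = 0.363). NDRG4 had a log2 change of 0.52 (adjusted p = 0.0109), and 0.0616 was its adjusted p without siCHD4 replicate 0.

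Few genes of the interferon response changed besides BST2. Of 45 interferon-stimulated and RNA sensing genes, 3 were higher and 0 lower in limma (7 and 1 at an unadjusted p below 0.05), 6.67% beside 3.26% of all tested genes, and the median log2 change was 0.10. Besides BST2 these were IFI27, a mitochondrial interferon-induced protein, and MX1, an antiviral GTPase. IFI27 had 12.4, 11.8 and 11.6 FPKM with siCHD4 and 2.02, 3.58 and 3.46 FPKM with control siRNA (log2 change 1.71, adjusted p = 0.00319), a call lost with a pseudocount of 0.1 (adjusted p = 0.144). MX1 had 7.04, 6.99 and 7.08 FPKM with siCHD4 and 5.96, 4.43 and 4.95 FPKM with control siRNA (log2 change 0.40, adjusted p = 0.0133), and its call was lost after quantile normalization (adjusted p = 0.0635) and without control replicate 1 or siCHD4 replicate 0 or 1 (adjusted p = 0.0580, 0.0555 and 0.0525). The sum of the list was 1027, 966 and 987 FPKM with siCHD4 and 1036, 884 and 894 FPKM with control siRNA, which overlap. Of 23 genes for HLA class I and antigen presentation, 0 were called in limma, with 4 higher and 2 lower at an unadjusted p below 0.05.

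**Figure D5:**
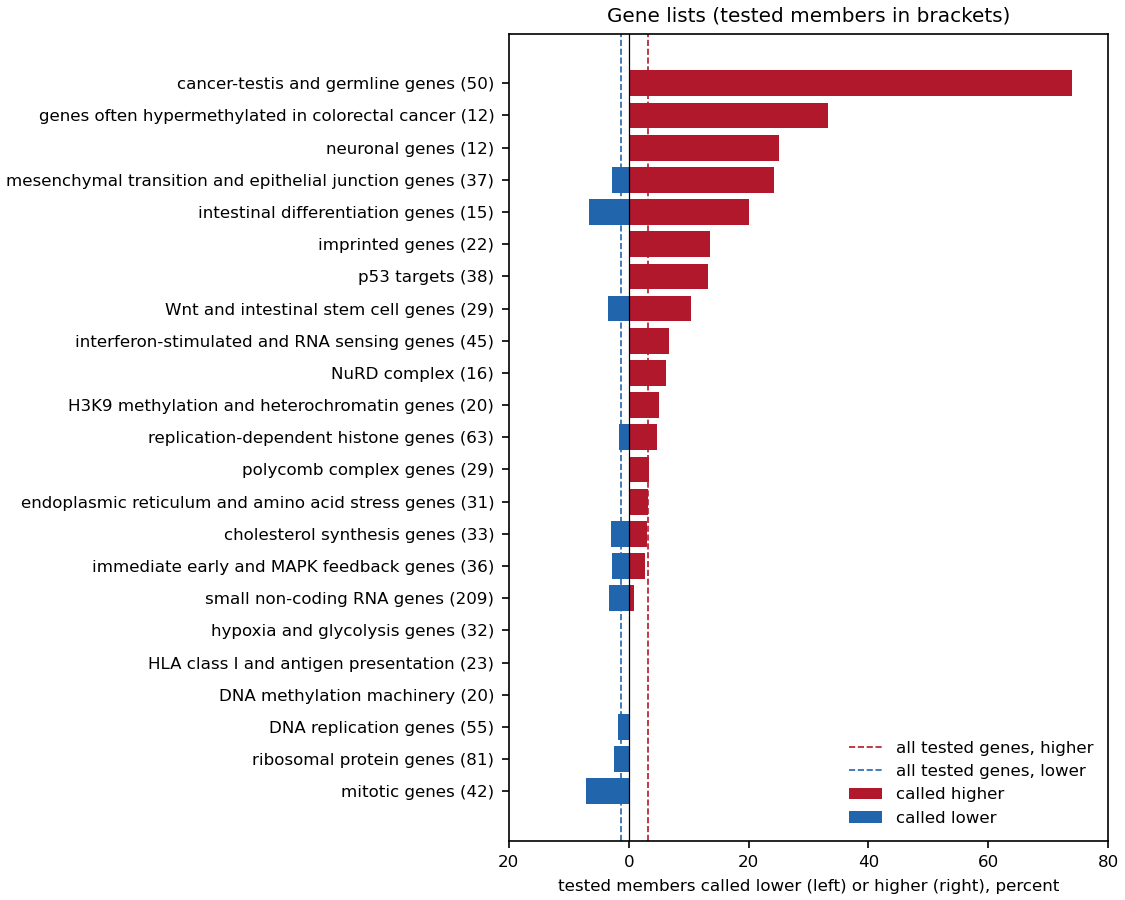
Share of the tested members of each gene list called higher (red, to the right) and lower (blue, to the left) with siCHD4 and decitabine, for lists with at least 10 tested members; dashed lines are the shares over all tested genes, 3.26% higher and 1.31% lower. Cancer-testis and germline genes reach 74.0% higher, and lists of DNA replication, mitotic and ribosomal protein genes have no member called higher.

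Several p53 targets were higher. Of 38 tested, 5 were higher and 0 lower in limma (11 and 2 at an unadjusted p below 0.05), 13.2% beside 3.26% of all tested genes, with a median log2 change of 0.11; without siCHD4 replicate 2 the count was 3. EDA2R, an ectodysplasin receptor, had 1.88, 2.03 and 2.02 FPKM with siCHD4 and 0.138, 0.226 and 0.119 FPKM with control siRNA (log2 change 1.36, adjusted p = 1.30e-07). PERP, a desmosome protein, had 94.4, 110 and 114 FPKM with siCHD4 and 53.1, 72.5 and 69.4 FPKM with control siRNA (log2 change 0.71, adjusted p = 0.00799). EDA2R was near 0 in the controls and PERP was at a high level there.

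Most cell cycle genes had small changes below 0, and few were called, beside 1.31% of all tested genes called lower and 8.80% lower at an unadjusted p below 0.05. Of 55 DNA replication genes 0 were called higher and 1 lower in limma (1 and 22 at an unadjusted p below 0.05), with a median log2 change of -0.22 and 48 of the 55 changes below 0. The called gene was ORC6, a subunit of the origin recognition complex, with 26.7, 24.0 and 28.1 FPKM with siCHD4 and 33.0, 37.1 and 34.9 FPKM with control siRNA (log2 change -0.40, adjusted p = 0.0282); the call was lost without control replicate 1 or 2 (adjusted p = 0.0930 and 0.0639) and without siCHD4 replicate 0 or 1 (0.0815 and 0.149). Of 42 mitotic genes 0 were higher and 3 lower in limma (0 and 17 at an unadjusted p below 0.05), with a median of -0.18; without control replicate 0 there were 6 lower. KIF2C, a microtubule-depolymerising kinesin, had 48.3, 47.0 and 47.0 FPKM with siCHD4 and 67.7, 66.0 and 62.7 FPKM with control siRNA (log2 change -0.46, adjusted p = 0.00568). CDC25C, a phosphatase that starts mitosis, had 9.63, 9.69 and 10.6 FPKM with siCHD4 and 15.8, 13.9 and 14.1 FPKM with control siRNA (log2 change -0.50, adjusted p = 0.00255). With library weights 33 of the replication and 30 of the mitotic genes were called lower. Both medians kept their sign after quantile normalization, at -0.16 for replication and -0.10 for mitosis.

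Genes that mark intestinal and other lineages moved in both directions. Of 15 intestinal differentiation genes 3 were higher (20.0%) and 1 lower (6.67%), beside 3.26% and 1.31% of all tested genes. Their median log2 change was 0.40. Without siCHD4 replicate 1 there were 1 higher and 0 lower. KRT20, a keratin of mature enterocytes, had 3.63, 3.65 and 3.92 FPKM with siCHD4 and 0.278, 0.227 and 0.420 FPKM with control siRNA (log2 change 1.86, adjusted p = 5.56e-05). HNF4A, a transcription factor of intestinal epithelium, had a log2 change of 0.57 (adjusted p = 0.0158; 0.0863 without siCHD4 replicate 1). MUC13, a transmembrane mucin, had a log2 change of 0.88 (adjusted p = 0.0153; 0.0509 without control replicate 1, and 0.0591 and 0.0780 without siCHD4 replicates 0 and 1). PHGR1, a small protein of gut epithelium, was lower, with 3.46, 4.30 and 3.08 FPKM with siCHD4 and 9.84, 11.2 and 14.0 FPKM with control siRNA (log2 change -1.46, adjusted p = 0.0220); its call held in 1 of 6 fits with a library left out. The groups of KRT20 and PHGR1 did not overlap.

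Of 29 Wnt and intestinal stem cell genes 3 were higher (10.3%) and 1 lower (3.45%), beside 3.26% and 1.31% of all tested genes. Their median log2 change was 0.15. ETS2, an ETS transcription factor, had 28.7, 28.4 and 30.0 FPKM with siCHD4 and 16.6, 17.0 and 18.5 FPKM with control siRNA (log2 change 0.71, adjusted p = 2.34e-05). CD44, the hyaluronan receptor, had 31.7, 40.0 and 29.0 FPKM with siCHD4 and 18.3, 20.8 and 18.3 FPKM with control siRNA (log2 change 0.77, adjusted p = 0.00361). EPHB2, an ephrin receptor of crypt cells, had 22.5, 20.6 and 20.4 FPKM with siCHD4 and 12.1, 14.4 and 16.6 FPKM with control siRNA (log2 change 0.54, adjusted p = 0.00681). The groups of all 3 did not overlap.

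Of 37 mesenchymal transition and epithelial junction genes 9 were higher and 1 lower (24.3% and 2.70% of the list). Over all tested genes these shares were 3.26% and 1.31%. The median log2 change of the list was 0.23. The count of higher genes was 6 without control replicate 1 and 5 and 4 without siCHD4 replicates 0 and 1. TNC, the matrix protein tenascin C, had 2.34, 2.23 and 1.94 FPKM with siCHD4 and 0.106, 0.346 and 0.217 FPKM with control siRNA (log2 change 1.38, adjusted p = 1.09e-06). FN1, fibronectin, had 1.04, 0.822 and 0.957 FPKM with siCHD4 and 0.289, 0.235 and 0.166 FPKM with control siRNA (log2 change 0.66, adjusted p = 0.000374). COL1A1, the chief collagen of fibroblasts, was below 1 FPKM in all 6 libraries and was called higher (log2 change 0.65, adjusted p = 0.0326), a call that held in 0 of the 6 fits with a library left out. COL1A1 is also 1 of the 3 fibroblast markers tested. The summed level of the 10 listed fibroblast markers, given above, was mostly LUM. LUM had 4.955, 5.05 and 5.88 FPKM with siCHD4 and 0.466, 3.23 and 3.16 FPKM with control siRNA, and was not called. The part of other cells in the COL1A1 result was not tested.

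Of 12 neuronal genes 3 were higher and 0 lower in limma (5 and 0 at an unadjusted p below 0.05), and of 22 imprinted genes 3 were higher and 0 lower (6 and 1). BEX2, a brain-expressed X-linked gene, had 0.952, 0.942 and 1.38 FPKM with siCHD4 and was listed at 0 in all 3 controls (adjusted p = 4.11e-05). UCHL1, a neuronal ubiquitin hydrolase, had 3.70, 3.32 and 4.56 FPKM with siCHD4 and 2.43, 1.72 and 1.67 FPKM with control siRNA (log2 change 0.73, adjusted p = 0.00321). Among imprinted genes, the growth factor receptor adaptor GRB10 had 4.88, 4.98 and 4.86 FPKM with siCHD4 and 1.37, 1.64 and 1.91 FPKM with control siRNA (log2 change 1.17, adjusted p = 0.000652). MKRN3, a ubiquitin ligase gene read from the paternal copy, had 1.74, 1.24 and 1.42 FPKM with siCHD4 and 0.887, 0.338 and 0.497 FPKM with control siRNA (log2 change 0.66, adjusted p = 0.00492). The groups of these 4 genes did not overlap.

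The lower genes were fewer. APOBEC3G, a cytidine deaminase of antiviral defence, had 1.12, 1.07 and 1.38 FPKM with siCHD4 and 17.5, 4.84 and 5.36 FPKM with control siRNA (log2 change -2.01, SE 0.30, adjusted p = 0.000746). The control value of the shallow replicate 0 was the highest, and without it the adjusted p was 1.02e-05; in the 6 libraries alone it was 0.104. LCN2, an iron-binding lipocalin, had 2.34, 3.69 and 1.64 FPKM with siCHD4 and 9.42, 8.88 and 8.43 FPKM with control siRNA (log2 change -1.52, SE 0.16, adjusted p = 2.11e-05). The epithelial ETS factors ELF5 and EHF were both lower. ELF5 had 5.84, 8.40 and 7.95 FPKM with siCHD4 and 22.4, 20.0 and 15.1 FPKM with control siRNA (log2 change -1.26, SE 0.17, adjusted p = 0.000334). EHF had 36.5, 41.1 and 40.6 FPKM with siCHD4 and 50.8, 82.7 and 80.9 FPKM with control siRNA (log2 change -0.81, SE 0.14, adjusted p = 0.00286). ETS2, of the same family, was higher, as given above. HAS2, a hyaluronan synthase, had 4.85, 5.06 and 5.62 FPKM with siCHD4 and 9.56, 13.3 and 14.1 FPKM with control siRNA (log2 change -1.09, adjusted p = 0.000418), while the hyaluronan receptor CD44 was higher.

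IER5, an immediate early gene, had 47.0, 48.6 and 48.4 FPKM with siCHD4 and 80.2, 83.1 and 94.0 FPKM with control siRNA (log2 change -0.82, adjusted p = 6.52e-05). EGR2, an immediate early zinc finger factor, was the 1 member of that list called higher, with 2.85, 3.82 and 2.72 FPKM with siCHD4 and 1.20, 1.60 and 1.31 FPKM with control siRNA (log2 change 0.80, adjusted p = 0.00146). Of the 36 tested immediate early and MAPK feedback genes, 1 was thus higher and 1 lower (2.78% each), beside 3.26% and 1.31% of all tested genes. Without control replicate 0 there were 3 higher. The gene C2orf54 had 5.26, 4.63 and 3.87 FPKM with siCHD4 and 12.9, 8.72 and 8.76 FPKM with control siRNA (log2 change -0.98, adjusted p = 0.00568). C6orf15 and PRSS22, a serine protease, were lower by -1.06 (adjusted p = 0.0153) and -1.28 (adjusted p = 0.0208) on the log2 scale. The call of C6orf15 was lost without siCHD4 replicate 0 or 1 (adjusted p = 0.0536 and 0.0655), and that of PRSS22 without any 1 of the siCHD4 libraries (adjusted p = 0.0733, 0.0595 and 0.0759); without control replicate 0 the change of PRSS22 was -0.85.

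Keratins 8 and 18, the partner keratins of simple epithelium, were the 2 epithelial markers called among 9 tested, both lower. They are 22.2% of the list, beside 1.31% of all tested genes called lower. Most of the list went the other way: 6 of the 9 changes were above 0, with a median log2 change of 0.30, though 0 were called higher. KRT18 had 541, 517 and 534 FPKM with siCHD4 and 1193, 808 and 810 FPKM with control siRNA (log2 change -0.79, adjusted p = 0.00210). KRT8 had 560, 513 and 517 FPKM with siCHD4 and 1006, 727 and 714 FPKM with control siRNA (log2 change -0.60, adjusted p = 0.0135; 0.0651 without siCHD4 replicate 1). After quantile normalization, neither passed the test: KRT18 changed by -0.39 (adjusted p = 0.0702) and KRT8 by -0.22 (adjusted p = 0.266). KRT19 had 39.7, 36.4 and 37.8 FPKM with siCHD4 and 14.8, 19.7 and 20.5 FPKM with control siRNA, which did not overlap and did not pass the test (log2 change 1.02, adjusted p = 0.0548); it was called higher after quantile normalization (adjusted p = 0.0462), in the 6 decitabine libraries alone (0.0288) and with library weights (0.000354). In the 6 libraries alone KRT18 and KRT8 were not called (adjusted p = 0.106 and 0.151).

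Ribosomal protein genes had small changes whose sign depended on the scaling. Of 81 ribosomal protein genes 78 had a change below 0, but 0 were called higher and 2 lower in limma (2.47%), beside 1.31% lower over all tested genes. At an unadjusted p below 0.05, 0 were higher and 47 of the 81 lower, beside 8.80% lower over all tested genes. The median of -0.33 became 0.17 after quantile normalization, with 2 called higher. The called genes RPL22 (log2 change -0.34, adjusted p = 0.0215) and RPL14 (-0.49, adjusted p = 0.0432) lost their calls there (adjusted p = 0.214 and 0.683). They also lost them with libraries left out: RPL22 without control replicate 1 or 2 or siCHD4 replicate 0 or 1, RPL14 in all 6 such fits except the one without siCHD4 replicate 2.

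Of 63 replication-dependent histone genes 3 were higher (4.76%) and 1 lower (1.59%), beside 3.26% and 1.31% of all tested genes. Their median log2 change was -0.41. Without control replicate 0 it was -0.18, with 6 higher and 1 lower. That library had the highest control value for 61 of the 63 genes, beside 46.4% of all tested genes. The 3 higher ones are testis histones or rarely expressed copies. HIST1H2BA, the testis H2B, had 10.3, 9.65 and 8.14 FPKM with siCHD4 and 3.90, 0.531 and 1.26 FPKM with control siRNA (log2 change 2.01, adjusted p = 0.00250). HIST3H3, a testis H3, had 3.36, 3.57 and 3.13 FPKM with siCHD4 and 0, 0.445 and 1.06 FPKM with control siRNA (log2 change 1.60, adjusted p = 9.85e-05). HIST1H2AA, a histone H2A, had 1.79, 2.00 and 3.19 FPKM with siCHD4 and 0, 0 and 0.658 FPKM with control siRNA (log2 change 1.47, adjusted p = 0.00136). The linker histone HIST1H1D was lower (log2 change -0.84, adjusted p = 0.0273), and by -0.52 without control replicate 0 (adjusted p = 0.0431); its call was lost without any 1 of the siCHD4 libraries (adjusted p = 0.0731, 0.0763 and 0.102). Histone genes have near-identical copies, so single genes are uncertain.

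Of 209 tested genes for small non-coding RNAs 2 were higher (0.957%) and 7 lower (3.35%), beside 3.26% and 1.31% of all tested genes. SNORD83B, a small nucleolar RNA, had 1047, 779 and 310 FPKM with siCHD4 and was listed at 0 in all 3 controls. Its log2 change was 9.31 (adjusted p = 0.00162), above that of TEX19, and its size depends on the added 1. SNORD17 had 291, 705 and 974 FPKM with siCHD4 and 5391, 2114 and 1295 FPKM with control siRNA (log2 change -2.07, adjusted p = 0.0158; 0.0882 without siCHD4 replicate 0). FPKM of genes shorter than a sequencing fragment are estimates of low precision. The count of lower small RNA genes ranged from 0 without siCHD4 replicate 0 to 8 without siCHD4 replicate 2 or control replicate 2.

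In the other lists at most 1 gene was called in each direction. For the lists below the shares were at most 5.00% higher and 3.03% lower, beside 3.26% and 1.31% of all tested genes. At an unadjusted p below 0.05 there were 10.9% higher and 8.80% lower over all tested genes. Of 31 endoplasmic reticulum and amino acid stress genes the chaperone HSPA5 was called higher (log2 change 0.48, adjusted p = 0.0258), a call lost without control replicate 0 or 1 (adjusted p = 0.0521 and 0.0764) and without siCHD4 replicate 0 or 1 (0.0623 and 0.142). Of 33 cholesterol synthesis genes the sterol carrier STARD4 was higher (log2 change 0.55, adjusted p = 0.0253) and the thiolase ACAT2 lower (log2 change -0.45, adjusted p = 0.0206). The call of STARD4 held in 1 and that of ACAT2 in 2 of the 6 fits with a library left out. Of 29 polycomb genes PHF1, a PRC2 accessory protein, was higher, with 13.3, 14.3 and 12.0 FPKM with siCHD4 and 7.92, 7.92 and 8.37 FPKM with control siRNA (log2 change 0.64, adjusted p = 0.00346). Of 20 H3K9 methylation and heterochromatin genes the ATPase MORC2 was higher (log2 change 0.44, adjusted p = 0.0258), in 1 of the 6 fits with a library left out and not after quantile normalization (adjusted p = 0.0579). Of 32 hypoxia and glycolysis genes 0 were called in limma, with 4 higher and 3 lower at an unadjusted p below 0.05.

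Most genes called here were also called in the same direction for siCHD4 on the siDNMT1 background, and fewer for siCHD4 with neither agent. These comparisons share no library with the one under decitabine. Of the 418 higher genes 395 were also higher with siCHD4 and siDNMT1, 94.5% of them and 12.4% of the 3175 genes higher there (24.8% of tested genes). With siCHD4 alone 192 were also higher, 45.9% of them and 15.6% of the 1227 genes higher there (9.58% of tested genes). Of the 168 lower genes 142 were also lower with siDNMT1 (84.5% of them, 4.51% of the 3148 there, which were 24.6% of tested genes) and 98 with neither agent (58.3% of them, 7.88% of the 1244 there, which were 9.71% of tested genes). In either direction, 49.4% of tested genes were called with siDNMT1 and 19.3% with neither agent. The direction was opposite for 3 of the higher and 2 of the lower genes with siDNMT1, and for 1 of the higher and 1 of the lower genes with neither agent. The 418 genes had a median log2 change of 1.04 with siDNMT1 and 0.32 with neither agent, beside 0.68 with decitabine, the values that chose them.

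The effect itself differed from that with neither agent in 148 genes (1.16% of tested genes), by limma's test of the difference, with 99 larger (more positive) and 49 smaller under decitabine. Among the 99, 67 were among the 418 higher genes; among the 49, 9 were. Without siCHD4 replicate 0, 1 or 2 with decitabine, 77, 81 and 88 genes differed. HCLS1 averaged 0.0401 FPKM with siCHD4 alone and 0.0211 FPKM with control siRNA alone (log2 difference 2.15, adjusted p = 0.000111). ETS2 averaged 43.9 FPKM with siCHD4 alone and 16.9 FPKM with control siRNA alone, a larger change than under decitabine (log2 difference -0.62, adjusted p = 0.00827). TXNIP, an inhibitor of thioredoxin, had 60.0, 59.0 and 59.8 FPKM with siCHD4 and decitabine and 28.9, 38.1 and 38.3 FPKM with control siRNA and decitabine (log2 change 0.76, adjusted p = 0.164), while it averaged 125 FPKM with siCHD4 alone and 12.3 FPKM with control siRNA alone (log2 difference -2.38, adjusted p = 0.00933).

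The effect differed from that with siDNMT1 in 1076 genes (8.40% of tested genes), 543 more positive and 533 more negative under decitabine, and 119 of the 533 were among the 418 higher genes. LGALS1 averaged 270 FPKM with siCHD4 and siDNMT1 and 12.0 FPKM with control siRNA and siDNMT1 (log2 difference -1.32, adjusted p = 0.0304). BST2 averaged 87.4 FPKM with siCHD4 and siDNMT1 and 2.63 FPKM with control siRNA and siDNMT1 (log2 difference -2.01, adjusted p = 0.0126). EHF was lowered more with siDNMT1, where it averaged 20.5 FPKM with siCHD4 and 87.8 FPKM with control siRNA (log2 difference 1.24, adjusted p = 0.00356). Without siCHD4 replicate 2 with decitabine, 320 genes differed, and without siCHD4 replicate 0, 643.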

How the data were processed

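Expression was measured by RNA sequencing in 18 SW48 libraries, 6 groups of 3, grouped by their titles. The table the authors deposited gives FPKM per gene and library; TopHat2 2.0.9, Cuffdiff 2.1.1 and the build hg19 are named in the submitters' processing notes. The annotation, filters and scaling were not given in the sources used here. Per the labels' protocols, stranded libraries were made from total RNA after removal of ribosomal RNA, and RNA was extracted with 1 of 2 kits, not assigned to libraries. Of 23599 entries, 28 (0.119%) carry a date in place of a name and were left out. Read counts were not used here, so the depth was read only as the relative worth of 1 fragment, and no counting interval is given.

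Genes reaching 1 FPKM in 3 or more of the 18 libraries were kept, and log2(FPKM + 1) was fitted with 1 mean per group over all 18 libraries (12 residual degrees of freedom) in limma 3.58.1 under R 4.3.3, with moderated variances. Benjamini-Hochberg adjustment of the two-sided p-values ran over the 12809 genes tested. Differences between siCHD4 effects were tested as contrasts of the same fit. The procedure was tested on simulated data. Positions came from the GENCODE annotation lifted to GRCh37, and promoters from RefSeq. Python 3.11.15 was used for summaries.

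Named genes are CHD4; the 15 called genes with the largest change in each direction whose groups did not overlap; the 5 most changed genes in each direction of each difference between effects; the 5 called members of a list with the smallest p; and members of the NuRD and DNA methylation lists. Of these, genes whose calls held with each library left out were preferred; this was decided with the values in view, as was the choice of adjacent genes, of blood cell genes, of DCK and of KRT19. The comparison, its lists and tests were chosen with earlier results of these data known. Alternatives tried were omission of the filter, a filter at 5 FPKM, a pseudocount of 0.1, a filter on the 6 decitabine libraries, rescaling by median ratio, quantile normalization, the 6 libraries alone, library weights, a replicate block and leaving out each library. A few named genes are not reported here.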

Additional observations from a re-analysis of the deposited data

Results flagged for a closer look

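For 58 comparisons of the named genes the siCHD4 effect under decitabine differed from that on another background by limma's test of the difference itself, at adjusted p from 1.49e-05 to 0.0480. All values below are log2 differences, the effect with decitabine minus the effect on the other background, so a positive one means that the gene was higher with siCHD4 by more, or lower by less, under decitabine. RNA was taken on day 5 with decitabine, day 8 with neither agent and day 11 with siDNMT1. The days of siRNA, given at the start of the report, also differed, and siCHD4 lowered its target to different degrees. Agent, schedule and knockdown therefore cannot be told apart.

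Against siCHD4 with neither agent, the germ cell and testis genes TKTL1 (2.88), VCX (2.15), MAGEB2 (2.14), MAGEA4 (2.14), PAGE5 (2.03), MAGEA11 (1.92), MAGEB6 (1.80) and HIST1H2AA (1.47) had larger effects under decitabine, and TEX19 (-2.02) a smaller one. VCX, MAGEB2, MAGEA4 and HIST1H2AA were listed at 0 in every library with neither agent. Genes of other tissues with larger effects were HCLS1 (2.15), CALCB (1.29), BEX2 (1.06), HBE1 (1.04) and PTPN7 (1.00). STARD4 differed by 1.02, EDA2R by 0.98, EHF by 0.95 and ESR1 by 0.53. Negative differences were found for HIST1H2BG (-4.37), the testis linker histone HIST1H1T (-3.62), TXNIP (-2.38), DNMT3B (-0.78), ETS2 (-0.62) and CDC25C (-0.61). HIST1H2BG and HIST1H1T were not called under decitabine, but without control replicate 0 HIST1H1T was called higher (log2 change 1.53, adjusted p = 0.00485), as it was with library weights (log2 change 1.56, adjusted p = 9.47e-06).

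Against siCHD4 with siDNMT1, most differences of genes called higher were negative. Among germ cell and testis genes they were -1.97 for TEX19, -1.56 for TKTL1, -1.51 for PAGE1, -1.46 for VCX, -1.31 for MAGEB6, -1.30 for MAGEB2 and -0.92 for MAGEA4. For BST2 the difference was -2.01 and for IFI27 -1.50. The calcium-binding protein S100A1 differed by -1.94, LGALS1 by -1.32, RAC2 by -1.22, GRB10 by -1.09, HCLS1 by -0.94, IGFBP3 by -0.90, COL1A1 by -0.89 and PTPN7 by -0.84. EGR2 differed by -0.73, ZNF827 by -0.68, UCHL1 by -0.67, FN1 by -0.66 and ESR1 by -0.52. Positive differences were found for CHD4 itself (0.77) and for genes lowered by siCHD4 with siDNMT1: EHF (1.24), DCK (1.01), ACAT2 (0.98), ELF5 (0.88), HAS2 (0.83), KRT18 (0.80), IER5 (0.70), RPL22 (0.44) and HDAC1 (0.37). HOTAIR differed by 0.69. SNORD83B, listed at 0 in all libraries of control siRNA and decitabine, had a fitted difference of 16.43, a value that depends on the added 1 and is no bound.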

How the results depend on the processing

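Of the 76 named genes called, all kept their calls and directions without a filter, after rescaling by the median ratio and with library weights; 38 lost the call in the fit of the 6 decitabine libraries alone, 9 after quantile normalization and 7 with a pseudocount of 0.1, and none reversed under any alternative. The counts of 418 higher and 168 lower genes were 673 higher without a filter, 191 higher at 5 FPKM, 131 and 16 in the 6 libraries alone, 1870 and 1837 with library weights, and 257 lower after quantile normalization. In the 6 libraries alone without control replicate 0, an alternative chosen after seeing the data, they were 525 and 218. With 1 library left out they ranged from 242 to 480 and from 51 to 161. The 116 genes higher from silence were 380, 11 and 44 without a filter, at 5 FPKM and with a filter on the 6 libraries, 62 after quantile normalization, 56 in the 6 libraries alone and 188 with weights, and 88 to 113 with 1 library left out. The opposite count of 1 was 0 with a pseudocount of 0.1, at 5 FPKM, in the 6 libraries alone and with the replicate block, 5 without a filter, 10 after quantile normalization, 14 with weights, 0 to 5 with 1 library left out and 3 in the alternative chosen later. The 148 genes differing from the effect alone were 83 at 5 FPKM and 2413 with weights, and 77 to 199 with 1 library left out; the 1076 differing from siDNMT1 were 693 with a pseudocount of 0.1 and 5626 with weights, and 320 to 1475. CHD4 changed by -0.54 with weights (adjusted p = 5.2e-05), and over the leave-one-out fits by -0.55 to -0.41; in the alternative chosen later it changed by -0.55 (adjusted p = 0.0093). DNMT1, not called, turned to 0.036 after quantile normalization and 0.032 without siCHD4 replicate 2 (range with 1 library left out, -0.096 to 0.032). HIST1H2BG, not called (log2 change -0.40), turned to 0.171 with weights and 0.234 without control replicate 0, in both fits that leave it out (range with 1 library left out, -0.722 to 0.234). The cause was not tested. Replicate numbers did not pair the libraries: the same-numbered libraries of both groups had residual correlations of -0.002, -0.002 and -0.039. With the replicate block the counts were 367 and 124, 97 genes differed from the effect alone and 692 from siDNMT1, and 1 named call, RPL14, was lost. Depth limits low genes most, where 1 fragment in control replicate 0 was worth several times that in the siCHD4 libraries.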

Other observations

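The following genes were chosen after their values were seen. Some genes called higher lay beside each other: of 398 genes called higher with a known position, 75 (18.8%) had an adjacent tested gene also called higher, and of 164 called lower, 14 (8.54%) had an adjacent tested gene also called lower. Over all tested genes 3.26% were called higher and 1.31% lower. A gene was counted when the neighbour on either side was called, so these single-gene shares understate the share expected by chance. The latter was not computed. Of the 42 adjacent pairs called higher 20 lie on the X chromosome, many in families with near-identical copies such as VCX, SSX, PAGE and MAGE. On chromosome 11, HBE1 lies next to the olfactory receptor genes OR51B4 and OR51B5, which overlap it in the annotation. OR51B5 had 1.35, 1.79 and 1.87 FPKM with siCHD4 and decitabine and was listed at 0 in all 3 libraries of control siRNA and decitabine (adjusted p = 1.59e-06). OR51B4 had 1.53, 0.625 and 0.961 FPKM with siCHD4 and was likewise listed at 0 with control siRNA (adjusted p = 0.000560). Also on chromosome 11, CALCB and CALCA encode calcitonin gene-related peptides; their annotated spans overlap on opposite strands, so reads of one may have been counted for the other. CALCB had 10.8, 13.1 and 12.0 FPKM with siCHD4 and 2.70, 6.47 and 4.54 FPKM with control siRNA (log2 change 1.27, adjusted p = 0.000612). CALCA had 4.03, 4.57 and 4.12 FPKM with siCHD4 and 1.57, 1.23 and 2.98 FPKM with control siRNA (log2 change 0.88, adjusted p = 0.0215), and its call held in 1 of 6 fits with a library left out. On chromosome 12, the homeobox genes HOXC12 and HOXC11 lie beside the long non-coding RNA HOTAIR, which overlaps HOXC11. HOXC11 had 4.71, 4.46 and 4.40 FPKM with siCHD4 and 1.46, 2.05 and 2.20 FPKM with control siRNA (log2 change 0.94, adjusted p = 0.00257). HOTAIR had 4.59, 4.65 and 5.22 FPKM with siCHD4 and 2.06, 2.59 and 2.94 FPKM with control siRNA (log2 change 0.73, adjusted p = 0.00440; 0.110 with a pseudocount of 0.1 and 0.0622 in the 6 decitabine libraries alone), and HOXC12 changed by 0.85 (adjusted p = 0.0235), a call that held in 3 of 6 fits with a library left out. In each of these 7 genes the groups did not overlap.

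Other genes known from blood cells were called higher beside HCLS1, while the blood cell markers given in the report had 0 of 6 tested members called in limma (2 higher and 1 lower at an unadjusted p below 0.05). VAV1, a signalling protein of lymphocytes, had 1.66, 1.35 and 1.38 FPKM with siCHD4 and decitabine and 0.169, 0.0918 and 0.109 FPKM with control siRNA and decitabine (log2 change 1.13, adjusted p = 4.53e-06). PTPN7, a phosphatase of blood cells, had 2.40, 2.12 and 1.99 FPKM with siCHD4 and 0.818, 0.356 and 0.423 FPKM with control siRNA (log2 change 1.06, adjusted p = 1.91e-05). RAC2, a GTPase of blood cells, had 1.60, 2.00 and 1.23 FPKM with siCHD4 and 0.706, 0.192 and 0.0760 FPKM with control siRNA (log2 change 1.00, adjusted p = 0.00933; 0.0591 without siCHD4 replicate 1). CD52, a lymphocyte surface glycoprotein, had 2.20, 1.97 and 2.61 FPKM with siCHD4 and 0, 0.817 and 0.971 FPKM with control siRNA (log2 change 1.09, adjusted p = 0.0202), and its call held in 2 of 6 fits with a library left out. PTPRC, the leukocyte common antigen, had 0.630, 0.737 and 0.684 FPKM with siCHD4 and 0.188, 0.281 and 0.460 FPKM with control siRNA, and was not called.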
